A study of Canis lupus familiaris with 4 samples.

Results

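Chemokines are small secreted proteins that set up gradients along which leukocytes migrate, and tumour cells of the glioma lineage can secrete them too. The dog genes CCL2, CCL5, CCL7, CCL20, CXCL8, CXCL10, CXCL12, CXCL14 and CXCL16,, 9 in all, were followed across 4 canine glioblastoma lines. A probe set (the group of short probes that reads 1 transcript) belonged to a member where its only listed gene symbol was one of these names, which gave 15 probe sets for the 9 genes, of 42924 probe sets and 15115 named genes on the array. The genes were chosen by their family and by their signals and ratios on these same arrays, so their values are a description and carry no test.

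J3T-1 and J3T-2 are subclones of 1 canine glioblastoma culture, J3T, grown in the same serum-containing medium as their derivatives. The study's authors describe J3T-1 as high and J3T-2 as low in annexin A2 (ANXA2), a calcium-dependent membrane-binding protein. Their descriptions are called labels here, since the array labels give only the names of the lines. Silencing ANXA2 in J3T-1 gave J3T-1shA, which is labelled low, and forcing its expression in J3T-2 gave J3T-2A, which is labelled high. Total RNA of each line went to 1 Affymetrix Canine Genome 2.0 array, so no line has a replicate, and a difference between lines cannot be told apart from one between cultures or arrays. J3T-1shA and J3T-2A are each 1 derived line, and no empty-vector or scrambled control line was analysed here. The arrays were scaled alike, with trimmed means of 495.8 to 496 and 35.2% to 35.9% of probe sets at a signal of 250 or more. ANXA2 itself had signals of 28656.0 on the array labelled J3T-1, 30092.9 on J3T-1shA, 30102.5 on J3T-2 and 28774.6 on J3T-2A. It was thus no lower in the silenced line and no higher in the overexpressing line by its brightest probe set (log2 ratios of -0.07 in both pairs). This signal does not show the labelled difference, and lines are named as labelled throughout. It lay in the upper part of a scale whose array maxima were 44434.6 to 46646.0. Whether the scale hid a difference was not tested, and these arrays do not read ANXA2 protein. In bulk RNA, fewer cells that express a gene and less RNA of it per cell cannot be told apart.

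Many chemokine genes are switched on by NF-kB, a transcription factor that inhibitors such as IkB-alpha hold in the cytoplasm until a signal such as TNF or IL-1 releases it. In human and mouse cells CCL2, CCL5, CCL7, CCL20 and CXCL10 are textbook NF-kB targets, and so is human CXCL8, a gene that dogs have and mice lack; these 6 are called the NF-kB-driven chemokines below. CXCL14 is a homeostatic chemokine made by many epithelia. CXCL16 is unusual in being made as a membrane protein whose chemokine domain can be shed by the protease ADAM10. CXCL12, the ligand of CXCR4, is expressed constitutively in many tissues and was kept apart from both sets.

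Signals are linear MAS 5.0 intensities, and they are compared between arrays within a probe set, never between probe sets. The summed signals of cell type markers add several probe sets, so the brightest of them weigh most. A gene counted as measured in a pair of arrays where the brighter array had a signal of at least 250, and as different where the ratio was over 2-fold. The brightest probe set stood for its gene. Since low signals make ratios unstable, a ratio that rests on a dim array is also given with every signal under 160 raised to 160, here called the floored fold. The only error available is the disagreement between the 2 brightest probe sets of a gene, whose log2 ratios differed with an SD of 0.29 (3716 genes) to 0.40 (3801 genes) depending on the pair. This spread covers measurement within 1 RNA sample and not variation between cultures. Of the 9 chemokine genes, 7 had a signal of at least 250 on an array, and CCL5 and CXCL12 had none.

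CCL2 draws monocytes through the receptor CCR2. Its signal was 753.5 on the J3T-1 array, 108.3 on J3T-1shA, 22771.4 on J3T-2 and 18212.2 on J3T-2A. Both J3T-2 arrays were therefore far above both J3T-1 arrays, and the array labelled J3T-1shA was the dimmest. The brightest array was 210-fold over the dimmest (floored fold 142), and even the dimmer of J3T-2 and J3T-2A was 24.2-fold over the brighter of J3T-1 and J3T-1shA. CCL7 attracts monocytes and eosinophils, and in RefSeq's dog assembly UU_Cfam_GSD_1.0 it is the neighbouring protein-coding gene of CCL2. Its signals were 8.7 on J3T-1, 5.2 on J3T-1shA, 400.3 on J3T-2 and 182.4 on J3T-2A. The order of the arrays was the same as for CCL2, but only J3T-2 reached 250, and the 77.0-fold range shrank to a floored fold of 2.50. CCL2, CCL7 and CCL5 were each read by a single probe set of a type (suffix _s_at) that can share probes with related transcripts, and cross-reading among these genes was not tested.

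CXCL8 is the main neutrophil attractant, acts on CXCR1 and CXCR2 and also promotes the growth of vessels. It was read by 3 probe sets. The brightest gave 691.1 on J3T-1, 46.9 on J3T-1shA, 7610.7 on J3T-2 and 8418.4 on J3T-2A. The J3T-2 and J3T-2A arrays were high, J3T-1 was intermediate and J3T-1shA was low. The second probe set gave 241.1, 53.1, 4317.1 and 5173.7 on the same arrays in the same order, and the third gave 170.7, 61.1, 2930.9 and 3685.3. All 3 probe sets ranked the 4 arrays alike, with ranges of 179-fold, 97.4-fold and 60.3-fold (floored folds 52.6, 32.3 and 23.0). J3T-2A was above J3T-2 by a log2 ratio of only 0.15, which was within the spread between probe sets (SD 0.29).

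CXCL10 is an interferon-inducible attractant of activated T cells and NK cells through CXCR3. Its signals were 14.1 on J3T-1, 28.7 on J3T-1shA, 809.7 on J3T-2 and 268.2 on J3T-2A. Here too both J3T-2 arrays were above both J3T-1 arrays, but unlike CCL2 and CXCL8 the lowest array was J3T-1, and both J3T-1 arrays were far under the limit of 250. The second probe set had the same order, with 4.0, 16.5, 375.2 and 105.0. The range was 57.4-fold for the brightest probe set, with a floored fold of 5.06.

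CCL20, the ligand of CCR6 on dendritic and Th17 cells, did not share the split by line of origin in its brightest probe set. Its signals were 311.4 on J3T-1, 224.4 on J3T-1shA, 413.3 on J3T-2 and 182.0 on J3T-2A, so the arrays of the subclones overlapped and the whole range was 2.27-fold. Its dim second probe set, with 32, 7.4, 108.1 and 51.4, placed J3T-1shA lowest instead of J3T-2A and had both J3T-2 arrays above both J3T-1 arrays, all under 250. CCL5, an attractant of T cells and monocytes, ranged from 33.2 on J3T-1shA over 78.5 on J3T-1 and 122.9 on J3T-2A to 222.0 on J3T-2. No CCL5 signal reached 250, the highest lying just under it, and the floored fold over the 4 arrays was 1.39. On the other side of the limit lay CXCL10 on J3T-2A, at 268.2, and the second CXCL14 probe set on J3T-1, at 255.8.

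**Figure D1:**
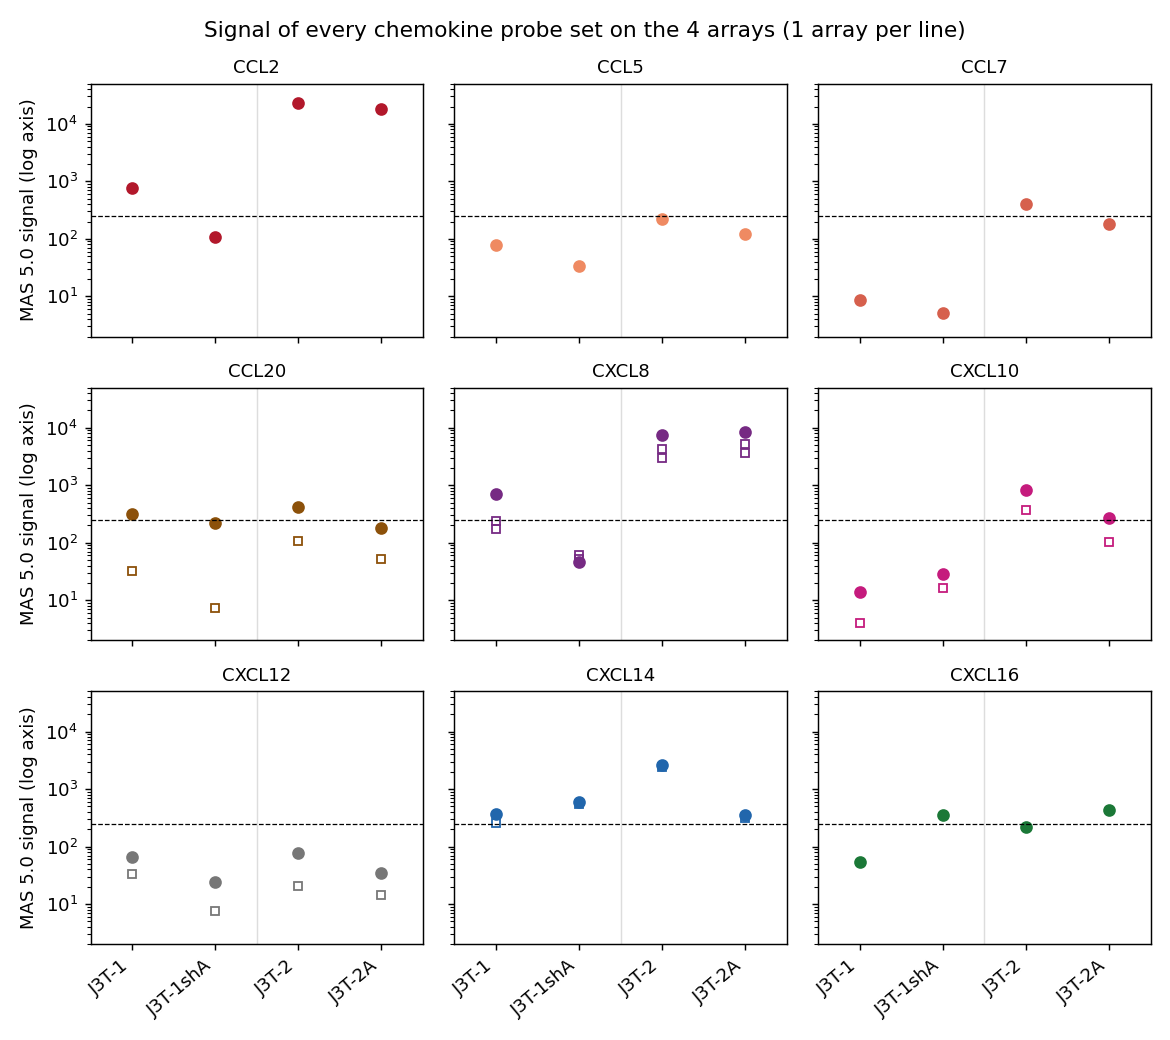
MAS 5.0 signal (log axis) of each chemokine probe set on the 4 arrays in the order J3T-1, J3T-1shA, J3T-2, J3T-2A, 1 per line, with filled circles for the brightest probe set of a gene, open squares for its other probe sets and a dashed line at 250. CCL2, CCL7, CXCL8 and CXCL10 sit higher on both J3T-2 arrays (right of the grey line) than on both J3T-1 arrays, CXCL14 stands up on J3T-2 alone, at 2664.4, and CXCL16 is lowest on J3T-1, at 53.2.

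CXCL14 had a different pattern. Its signals were 372.9 on J3T-1, 606.4 on J3T-1shA, 2664.4 on J3T-2 and 360.6 on J3T-2A. J3T-2 was high alone, and J3T-2A was as low as J3T-1, with a log2 ratio between them of -0.05 that was within the spread between probe sets (SD 0.36). The second probe set gave 255.8, 539.9, 2382.6 and 310.2, again with J3T-2 alone high. All 8 of these signals were at least 250, so the ranges of 7.39-fold and 9.31-fold do not rest on dim arrays.

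CXCL16, which attracts CXCR6-positive T cells and in its membrane form can hold them, was read by 1 probe set. Its signals were 53.2 on J3T-1, 354.9 on J3T-1shA, 216.0 on J3T-2 and 432.4 on J3T-2A. J3T-1 was low, J3T-1shA and J3T-2A were highest, and the log2 ratio of 0.28 between the latter was within the spread between probe sets (SD 0.33). The range was 8.13-fold (floored fold 2.70). CXCL12 was dim everywhere, with 66.9, 24.3, 77.5 and 35.2 on J3T-1, J3T-1shA, J3T-2 and then J3T-2A for the brighter probe set and 33.9, 7.6, 20.4 and 14.3 for the other, and its ratios were not used.

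Set by line of origin, 4 of the 7 genes that reached 250, CCL2, CCL7, CXCL8 and CXCL10, had signals over 2-fold higher on both J3T-2 arrays than on either J3T-1 array, and with the floor 2 of the 7, CCL2 and CXCL8, did. Over all 7241 genes that reached 250 on an array, 0.635% had this pattern (46 genes, and 0.456% with the floor) and 0.359% the reverse, and 16% and 20.4% had groups that did not overlap in these 2 directions at any fold. Because the chemokines were chosen with these ratios known, their count is not read against that background. The gap between the dimmer J3T-2 array and the brighter J3T-1 array was 24.2-fold for CCL2 and 11-fold for CXCL8 with and without the floor. It was 21.0-fold for CCL7 and 9.34-fold for CXCL10, but the floored folds were 1.14 and 1.68, inside 2-fold, so for these genes the call itself rests on dim signals. CCL7 was under 250 on J3T-2A as well as on both J3T-1 arrays, so its ratios among these 3 were not measured. CCL20, CXCL14 and CXCL16 overlapped between the subclones. The highest array was J3T-2 for 5 of the 7 genes and J3T-2A for the others, CXCL8 and CXCL16, where 26.2% and 14.2% of all such genes peaked.

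The parental subclones differed in 5 of 6 measured chemokines, all lower on J3T-1 than on J3T-2, while 4.05% of 6967 measured genes were over 2-fold lower and 2.94% over 2-fold higher. The log2 ratios of J3T-1 over J3T-2 were -5.84 for CXCL10, -5.52 for CCL7, -4.92 for CCL2, -3.46 for CXCL8 and -2.84 for CXCL14, against a spread between probe sets of 0.37. CXCL10 was the 5th lowest of all measured genes in this pair, CCL7 the 9th, CCL2 the 13th, CXCL8 the 25th and CXCL14 the 39th. This order rests on dim J3T-1 signals: with the floor CXCL10 was at -2.34 and CCL7 at -1.32, while CCL2, CXCL8 and CXCL14 kept their values and were the 3rd, 5th and 15th lowest. CCL20 was within 2-fold, at -0.41. The median over the 6 measured chemokines was -4.19 (-2.59 with the floor), and that over all measured genes was 0.03.

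Between J3T-1 and J3T-1shA, the comparison that asks what went with the labelled silencing of ANXA2, CCL2 and CXCL8 were higher on J3T-1 and CXCL16 was lower. CXCL8 was 14.7-fold higher (floored fold 4.32) and CCL2 6.96-fold (floored fold 4.71), the 12th and 26th highest of 6944 measured genes, of which 3.8% were over 2-fold higher. CXCL16 was 6.67-fold lower (floored fold 2.22), and 4.26% of all measured genes were over 2-fold lower. The other CXCL8 probe sets had log2 ratios of 2.18 and 1.48 in the same direction, with both arrays under 250 and floored folds of 1.51 and 1.07, inside 2-fold. CCL20 and CXCL14 were within 2-fold, at log2 ratios of 0.47 and -0.70, although the second CXCL14 probe set lay just past it, at -1.08. CCL5, CCL7 and CXCL10 were under the limit on both arrays.

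Between J3T-2A and J3T-2, the comparison that asks what went with the labelled overexpression of ANXA2, 4 of 7 measured chemokines were over 2-fold lower on J3T-2A and 1 was higher, with 2.1% and 1.69% of 6860 measured genes in these directions. CXCL14 was 7.39-fold lower, the 8th lowest of all measured genes, and its second probe set gave a log2 ratio of -2.94 against -2.89. CXCL10 was 3.02-fold lower, with -1.59 and, for the second probe set, -1.84. CCL20 and CCL7 were 2.27-fold and 2.19-fold lower, and CXCL16 was 2.00-fold higher, only just past the threshold. With 80 added to every signal, CCL7, CCL20 and CXCL16 fell to log2 ratios of -0.87, -0.91 and 0.79, inside 2-fold. CCL2 (-0.32) and CXCL8 (0.15) were within 2-fold. The former was just past the spread between probe sets, and the latter was within it by its brightest probe set.

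**Figure D2:**
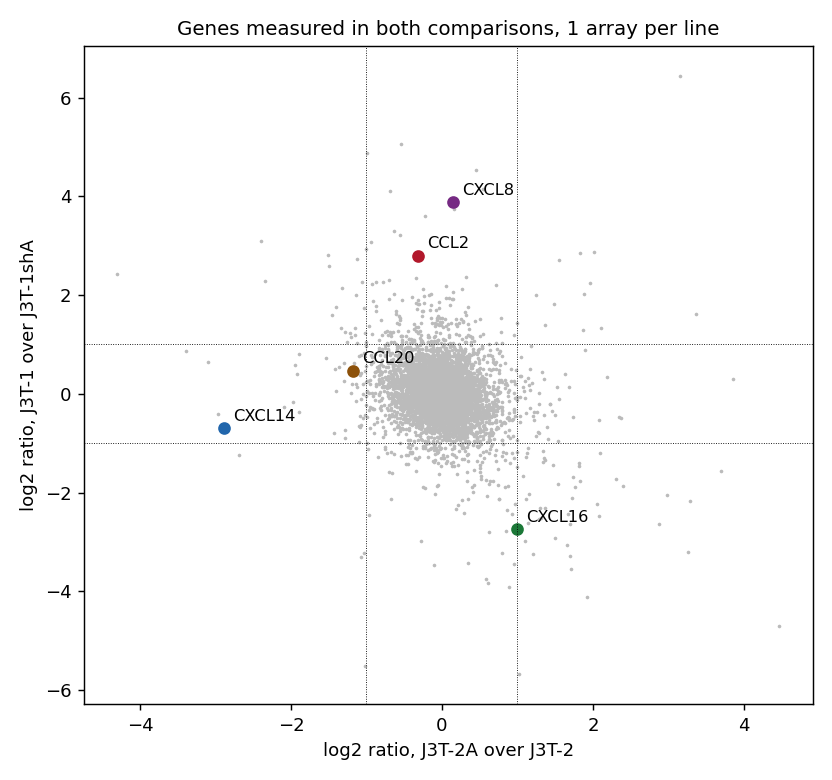
Log2 ratio of J3T-1 over J3T-1shA (vertical axis) against that of J3T-2A over J3T-2 (horizontal axis) for the genes measured in both, 1 array per line, with chemokines in colour, all other genes in grey and dotted lines at 2-fold. CXCL8 and CCL2 lie high on the vertical axis (3.88 and 2.80) and near 0 on the horizontal one, CXCL14 lies far to the left (-2.89), and CXCL16 lies at lower right (-2.74 and 1.0).

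These comparisons share no array. The genes that differed most in one of them differed little in the other: CXCL8 and CCL2 in the J3T-1 comparison only, CXCL14 past 2-fold in the J3T-2 comparison only by its brightest probe set. CXCL16 was over 2-fold different in both and in opposite directions, lower on the array labelled high in annexin A2 for J3T-1 and higher on it for J3T-2A. By the brightest probe sets 0 of the 5 chemokines measured in both were over 2-fold different in the same direction in both. Over all measured genes, 1.69% to 4.26% passed 2-fold per direction in a single pair, and the share passing in both was not counted. This 0 is therefore not read as a result about chemokines. The second CXCL14 probe set was lower in both, at -1.08 and -2.94, on signals of at least 250. With 1 array per line, whether the comparisons differ was not tested.

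Across the remaining pairs the split by line of origin recurred, as it must where arrays are shared. Against J3T-2, J3T-1shA was lower in CCL2 (log2 ratio -7.72), CXCL8 (-7.34), CCL7 (-6.27), CXCL10 (-4.82) and CXCL14 (-2.14), with 5.31% of 7012 measured genes over 2-fold lower and 4.39% higher. Floored folds were 142 for CCL2, 47.6 for CXCL8, 5.06 for CXCL10 and 2.50 for CCL7. CCL20 and CXCL16 were within 2-fold there, at -0.88 and 0.72. The former, a 1.84-fold difference, was the nearest to the threshold from inside.

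J3T-2A was over 2-fold above J3T-1 in CCL2 (4.60), CXCL10 (4.25), CXCL8 (3.61) and CXCL16 (3.02), all log2 ratios, where 2.72% of 6850 measured genes were over 2-fold higher and 1.94% lower. Both of these lines are labelled high in annexin A2. Against J3T-1shA it was higher in CXCL8 (7.49), CCL2 (7.39) and CXCL10 (3.22), where 3.11% of 6846 measured genes were higher and 2.66% lower. The floored log2 ratio of CXCL10 was 0.75 in both pairs, inside 2-fold, so that its call there rests on signals of 14.1 and 28.7. CXCL14 stayed within 2-fold in both, at -0.05 and -0.75.

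**Figure D3:**
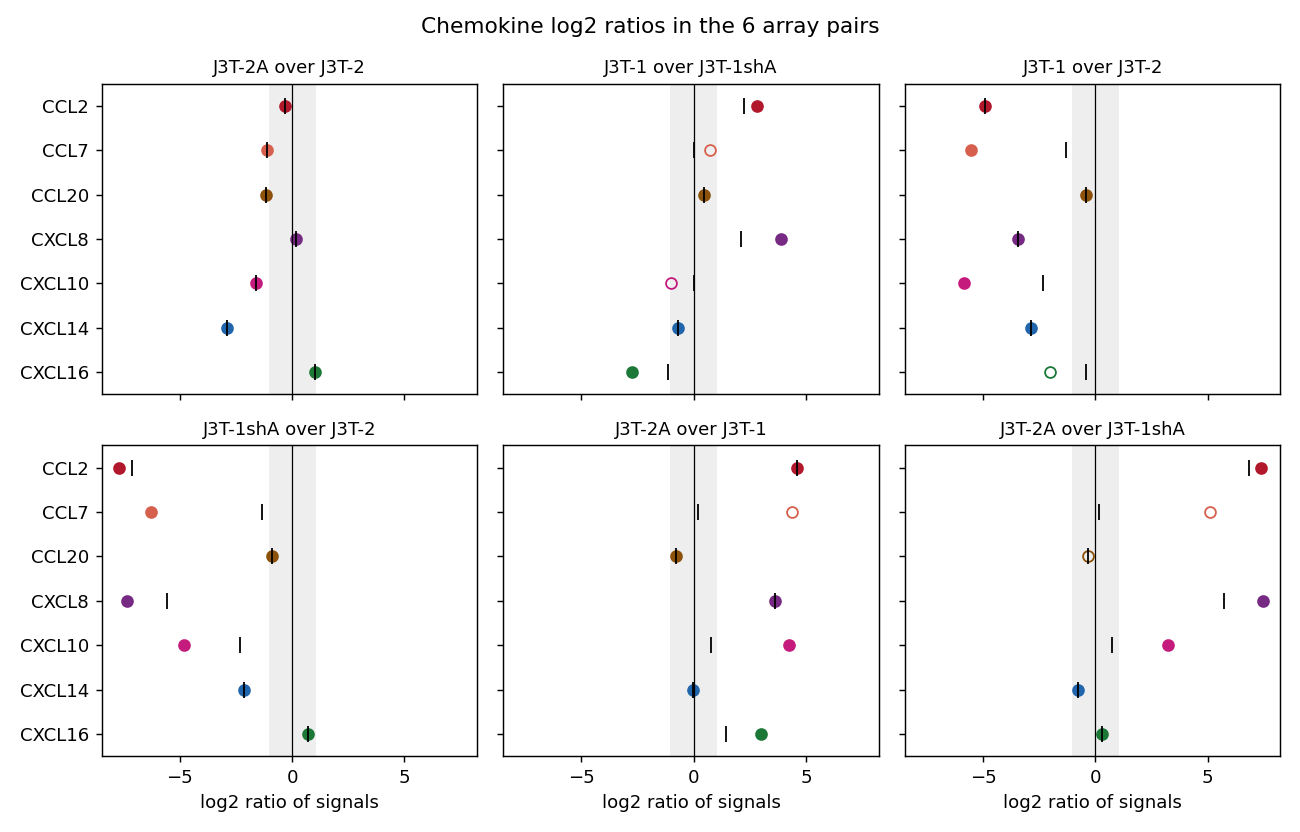
Log2 ratios of the 7 chemokines that reached 250 on an array in all 6 pairs of arrays, with filled circles where the pair was measured, open circles where both arrays were under 250, black ticks for the ratio with signals under 160 raised to 160, and grey bands for differences within 2-fold. In J3T-1shA over J3T-2 the circles of CCL2 and CXCL8 lie at -7.72 and -7.34, and the ticks of CCL7 and CXCL10 fall well short of their circles.

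The NF-kB-driven chemokines and the pair CXCL14 and CXCL16 were set side by side. For J3T-1 over J3T-1shA, the median log2 ratio was 2.80 over 3 measured NF-kB-driven genes, and the mean of CXCL14 and CXCL16 was -1.72. CXCL8 and CXCL16 lay 6.62 apart on the log2 scale and CCL2 and CXCL14 3.5 apart, against a spread between probe sets of 0.37. These gaps rest in part on dim arrays. With the floor the ratios were 2.11 for CXCL8, -1.15 for CXCL16, 2.24 for CCL2 and -0.70 for CXCL14. The CXCL8 probe sets themselves differed by more than that spread, with 3.88, 2.18 and 1.48. For J3T-2A over J3T-2, the median of 5 NF-kB-driven genes was -1.13 and the mean of CXCL14 and CXCL16 was -0.94. That mean joins opposite values, since CXCL16 and CXCL14 lay 3.89 apart, while CXCL8 and CXCL14 lay 3.03 apart.

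Where the subclones were compared, the NF-kB-driven medians without the floor were larger in size than the mean of the measured genes of CXCL14 and CXCL16. They were -4.92 for J3T-1 over J3T-2 and -6.27 for J3T-1shA over J3T-2. CXCL14 alone gave -2.84 in the former, and in the latter the mean of -0.71 joined opposite values of -2.14 and 0.72. The median of -6.27 was the ratio of CCL7 itself, on signals of 5.2 and 400.3, and its floored value was -1.32. For J3T-2A the medians were 3.93 over J3T-1 and 7.39 over J3T-1shA, against 1.49 and -0.23, and the 7.39 covered only 3 measured genes. CXCL14 and CXCL16 ranked the arrays differently, with CXCL14 highest on J3T-2 and CXCL16 on J3T-2A. CCL20 was the one measured NF-kB-driven gene within 2-fold between the subclones, with log2 ratios of -0.41, -0.88 and -0.77 in the first 3 of these pairs and no measured value in the last. These medians moved with the treatment of dim signals, and the difference between the sets for J3T-1 over J3T-2 changed from -2.08 to 0.50 with the floor.

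NF-kB itself and its other targets were read from a list of 35 genes, 17 of which had a signal of at least 250. Of these 17, 4 were over 2-fold higher on both J3T-2 arrays than on both J3T-1 arrays and 0 the reverse, where the background was 0.635% and 0.359%. NFKBIA, which encodes IkB-alpha, had 900.6 and 1102.9 on J3T-1 and J3T-1shA against 9243.6 and 4862.7 on J3T-2 and J3T-2A. NFKB1, the p105/p50 subunit, passed narrowly with 656.7 and 808.6 against 1961.9 and 1663.5, but its probe sets disagreed: another gave 276.9 and 401.4 against 716.1 and 565.1, and the last was flat, with 461.0 and 483.1 against 466.1 and 493.5. The others were the adhesion molecule VCAM1 (5.5 and 13.1 against 317.6 and 558.3) and the acute-phase protein gene SAA1 (43.1 and 14.3 against 5252.3 and 1609.2). With the floor 3 of the 17 passed, VCAM1 being lost, where the background was 0.456%. ICAM1, another adhesion molecule under NF-kB control, ran the other way, with 1548.7 and 1336.9 against 785.1 and 823.1. RELA, which encodes the p65 subunit, was under 250 on all arrays.

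Between J3T-2A and J3T-2, 5 of 17 genes of this list were over 2-fold lower and 1 was higher, with a median log2 ratio of -0.42, where 2.1% and 1.69% of all measured genes were lower and higher. The lower genes were CSF1 (-3.82), SOD2 (-1.94), BCL2A1 (-1.89), SAA1 (-1.71) and NFKBIZ (-1.21), and the higher one was BIRC3 (1.29). CSF1 was at 300.0 against a dim 21.3, and its floored fold of 1.88 was inside 2-fold. Between J3T-1 and J3T-1shA, the pair in which CXCL8 and CCL2 differed, 0 of 10 measured genes of the list were over 2-fold different in either direction, where 3.8% and 4.26% of all measured genes were higher and lower, and the median was -0.16. In J3T-1 over J3T-2 8 of 17 were lower and 0 higher, with a median of -0.84, against 4.05% and 2.94% of all measured genes. The list was chosen with earlier results of these data known.

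**Figure D4:**
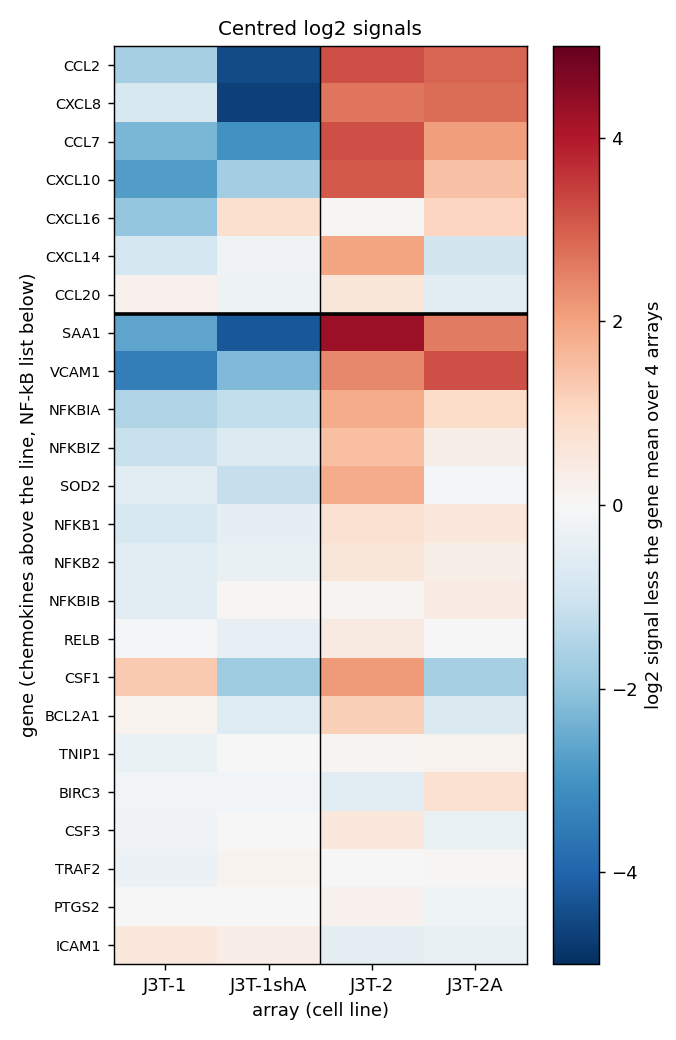
Log2 signal less the mean of the gene over the 4 arrays, in colour, for the 7 chemokines that reached 250 on an array (above the line) and the 17 genes of the NF-kB list with such a signal (below it), 1 array per line. CCL2, CXCL8, CCL7 and CXCL10 above the line, and SAA1, VCAM1, NFKBIA and NFKB1 below it, are red on both J3T-2 arrays and blue on both J3T-1 arrays, while ICAM1 is the reverse.

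CXCL10 is also an interferon target, and 13 of 26 interferon response genes had a signal of at least 250. On both J3T-2 arrays 9 of the 13 were above both J3T-1 arrays, where the background was 16%, but 0 by over 2-fold, and 9 peaked on J3T-2, where 26.2% of all genes did. GBP1, an interferon-induced GTPase, had 1774.0 on J3T-2 and 764.4 on J3T-2A, and was higher on J3T-1 (398.5) than on J3T-1shA (179.3), where CXCL10 was under the limit. The list's median log2 ratio was -0.57 for J3T-2A over J3T-2, where 1 of 13 genes was over 2-fold lower and 0 higher (2.1% and 1.69% of all measured genes). It was 0.73 for J3T-1 over J3T-1shA, where 4 of 11 were higher and 0 lower (3.8% and 4.26% of all measured genes). With the floor 3 of 11 were higher.

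Of 23 listed chemokine receptor genes, 15 were read, CXCR1, CXCR2 and CXCR4 not among them, and 0 of the 15 reached 250 on any array. Of 32 other listed chemokine ligands, 19 were read, CXCL1, CXCL2 and CXCL11 not among them, and 1 of the 19 reached 250. It was CCL24, an attractant of eosinophils, with 137.9 on J3T-1, 79.1 on J3T-1shA, 420.0 on J3T-2 and 111.9 on J3T-2A. CCL24 was thus high on J3T-2 alone. ADAM10, the protease that sheds CXCL16, was within 2-fold in all pairs by its brightest probe set, with 5486.1, 4544.2, 6639.4 and 3771.6 on the same arrays. Its second probe set gave 535.6, 577.2, 983.1 and 481.5, just past 2-fold lower on J3T-2A than on J3T-2 (log2 ratio -1.03). MMP2, which in humans trims CCL7 and CXCL12, had 266.5, 105.3, 79.3 and 342.2. It reached 250 only on the arrays labelled high in annexin A2, on J3T-1 narrowly. Its second probe set ranked the arrays alike, with 209.0, 74.3, 27.3 and 455.2, but was under 250 on J3T-1. With the floor, 0 of 3 measured proteases of its list were over 2-fold higher on J3T-1 than on J3T-1shA. For J3T-2A over J3T-2, 1 of 4 was, and this was MMP2. MMP1, an interstitial collagenase, had 44.8, 59.2, 13567.5 and 14605.3 and was split by line of origin.

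The genes closest in pattern to CXCL8, CXCL14 and CXCL16 were sought among 7241 genes by the Euclidean distance between log2 signals centred on their mean over the 4 arrays, a measure of 4 points that has no test. CCL2 and the urate transporter gene SLC2A9 were the closest to CXCL8, each at a distance of 1.08, and SLC2A9 had 503.8, 17.2, 5219.8 and 2619.8 on J3T-1, J3T-1shA, J3T-2 and then J3T-2A. With the floor these remained the nearest, at 1.33 and 1.24. The next, NT5E, PECAM1 and TESPA1, rest on dim signals and were replaced with the floor by C1S, TNFSF18 and SAA1. CTPS2 (0.58), IGFBP5 (0.96), SMOC1 (0.99), GALNT16 (1.10) and IL11 (1.11) were closest to CXCL14, of which IGFBP5 remained among the nearest 5 with the floor. LIMD2 (0.56), RDH10 (0.62), EDNRA (0.67), NEGR1 (0.69) and CAMK1D (0.70) were closest to CXCL16, of which LIMD2 remained. With the floor 1398 genes lay within a distance of 1 of CXCL16, against 18 without it, so its nearest genes are not settled by these signals.

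Leukocytes and endothelium are rich sources of these chemokines, and their markers were read on the same arrays. Of 10 markers of microglia and macrophages, 1 had a signal of at least 250, C1QA, with 661.5 and 514.8 on J3T-1 and J3T-1shA and 317.4 and 298.0 on J3T-2 and J3T-2A. The summed signal of the 10 was 985 and 818 on the J3T-1 arrays and 737 and 629 on the J3T-2 arrays. This order came from C1QA alone, since the other 9 markers, all under 250, summed to 323 and 303 on the J3T-1 arrays and 420 and 331 on the J3T-2 arrays. Of 5 markers of T and NK cells and 3 of neutrophils, 0 reached 250. Of 6 endothelial markers, PECAM1 alone did, with 37.0, 1.0, 773.2 and 161.0 on J3T-1, J3T-1shA, J3T-2 and then J3T-2A, and the summed signal of the 6 was 223, 345, 1094 and 384. The part of these markers in the chemokine values was not tested. Of 7 glial and glioma markers, VIM, CD44 and SOX2 reached 250 on every array and NES on J3T-1shA alone, at 345.9. GFAP, S100B and AQP4 reached it on none. Of 5 markers of fibroblasts and pericytes, 4 reached 250 on an array, with summed signals of 39111 on J3T-1 to 72448 on J3T-2A.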

How the data were processed

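The authors hybridised biotin-labelled cRNA from 250 ng of total RNA per line to Affymetrix Canine Genome 2.0 arrays and computed MAS 5.0 signals in single-array analyses with default settings and global scaling. The deposited table holds these signals as linear intensity values with no detection calls. Its trimmed means, with 2% left out at each end, were 495.8 to 496, although the methods give a target of 100. Signal limits were therefore set at 5 times those written for the stated scale.

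Ratios were taken between single arrays with no further normalization, pseudocount or floor (Python 3.11.15, pandas 2.3.3, numpy 2.4.6), and no test was run, since each line has 1 array. A gene was read from its brightest probe set by mean signal over the 4 arrays. Probe sets with several symbols (439) or not listed in the array annotation (13231) were not used. Symbols of 9 of 9 chemokine genes matched RefSeq (UU_Cfam_GSD_1.0) by Entrez identifier. The scripts were tested on simulated data. Precision is limited by the number of arrays.

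The text names every chemokine member with every probe set, list genes with a signal of at least 250 and over 2-fold different in a pair or whole lists as counts, and the 5 genes nearest in pattern to CXCL8, CXCL14 and CXCL16. List genes within 2-fold and markers were named after their values were seen. Members and lists were chosen with earlier results of these data known. The floor on list counts, line-of-origin counts and nearest patterns, and the macrophage sum without C1QA, were added after seeing the data. The other alternatives were median centring, quantile normalization, a pseudocount of 80, a floor of 160, the median of a gene's probe sets, and limits of 500, 125 or none.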

Additional observations from a re-analysis of the deposited data

Results flagged for a closer look

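For 3 of the 5 chemokines measured in both, the ratio had opposite signs in the comparisons of J3T-1 with J3T-1shA and of J3T-2A with J3T-2. Both were taken as the line labelled high in annexin A2 over the line labelled low. The share of all measured genes with opposite signs was not counted, so the count is not read as a result about chemokines. With 1 array per line the difference was not tested. CXCL16 was lower on J3T-1 than on J3T-1shA and higher on J3T-2A than on J3T-2, and its log2 ratios of -2.74 and 1.0 differed by -3.74. CCL2 was higher on J3T-1 and slightly lower on J3T-2A, with 2.80 and -0.32, a difference of 3.12. CCL20 had 0.47 and -1.18, a difference of 1.66, on signals of 182.0 to 413.3.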

How the results depend on the processing

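Of 272 log2 ratios of single chemokine genes taken under the alternatives, 235 stayed or moved within the spread between probe sets and 37 moved further. The 235 include ratios that could not move, so this count is no measure of stability. Another limit changes which genes enter and leaves each ratio as it was. This holds for 20 ratios with a limit of 500, and for 36 each with a lower limit (given with the methods) and with none. The median of probe sets cannot move CCL2, CCL7 or CXCL16, each read by 1 probe set. Of the ratios over 2-fold in the main setting, 0 changed direction. This 0 is no measure of stability either, since a pseudocount, a floor or another limit cannot reverse a ratio. Inside 2-fold, CXCL14 for J3T-2A over J3T-1 changed sign, from -0.05 to 0.11 with the median of probe sets. The 37 ratios that moved further came from the pseudocount (14), the floor (14) and the median of probe sets (9). Median centring and quantile normalization moved 0 of 36 each. The number of chemokines over 2-fold different was 5 for J3T-2A over J3T-2 and became 2 with the pseudocount or a limit of 500. It was 4 for J3T-2A over J3T-1 and became 2 with a limit of 500. With no limit it went from 3 to 6 for J3T-1 over J3T-1shA and from 3 to 5 for J3T-2A over J3T-1shA. CCL20 passed 2-fold with the median of its probe sets for J3T-1 over J3T-1shA (1.29), J3T-1 over J3T-2 (-1.08) and J3T-1shA over J3T-2 (-2.37).

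The NF-kB-driven median less the mean of CXCL14 and CXCL16 was -0.19 for J3T-2A over J3T-2, and it changed sign with the pseudocount (0.05) and with a limit of 500 (2.56). For J3T-1 over J3T-2 it was -2.08, became -0.64 with the pseudocount and changed sign with the floor (0.50). For J3T-1 over J3T-1shA it was 4.52, and 3.30 with the pseudocount, 3.04 with the floor, 4.0 with the median of probe sets, 4.04 with a limit of 500 and 2.71 with no limit. For J3T-1shA over J3T-2 it was -5.56, and -2.31 with the pseudocount, -1.63 with the floor, and -4.83 with a lower limit (given with the methods) or none. For J3T-2A over J3T-1 it was 2.44, and 1.72 with the pseudocount, 1.48 with the floor and 2.88 with the median of probe sets. For J3T-2A over J3T-1shA it was 7.63, and 6.27 with the pseudocount, 5.95 with the floor, 6.85 with the median of probe sets, 8.19 with a limit of 500, 5.36 with the lower limit and 4.41 with no limit. The pseudocount and the floor shrink ratios on dim signals by construction, and other limits change which genes enter. Signals far under 250, such as those of CCL7 and CXCL10 on the J3T-1 arrays, set no firm size for a ratio. No paired analysis was possible because each line has 1 array and the result comes from no test.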
